A study of Mus musculus with 6 samples.

Results

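The transcripts described are those of 41 genes of the integrated stress response and the unfolded protein response, taken as the rows of the deposited count table whose gene name equals a listed symbol, out of 19309 genes in the table. Of the 41, 20 belong to the ATF4 side of the response and 21 to the chaperone side. The ATF4 side holds *Atf4* itself, other stress transcription factors, genes known as ATF4 or CHOP targets, and the constitutive phosphatase subunit gene *Ppp1r15b*. The chaperone side holds the endoplasmic reticulum (ER) stress sensors *Atf6* and *Ern1* and the transcription factor gene *Xbp1*. It also holds the chaperones and folding enzymes of the ER and the ER-associated degradation machinery. All 41 passed the filter on low counts, as did 13785 genes of the table.

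The integrated stress response starts with kinases that phosphorylate the translation factor eIF2α when amino acids or heme run short, when viral double-stranded RNA is present or when misfolded protein builds up in the ER, which slows the translation of most mRNAs and favors that of *Atf4*. ATF4 activates genes for amino acid synthesis and transport, redox defense and, with CHOP, cell death. The unfolded protein response adds the IRE1-XBP1 and ATF6 branches, which activate ER chaperones and degradation factors, and macrophages draw on both responses because they secrete large amounts of protein and are exposed to microbial and lipid stress.

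RNA was sequenced from M2c macrophages of 3 sEH-/- and 3 wild-type mice to find transcripts that depend on the soluble epoxide hydrolase (sEH), the enzyme encoded by *Ephx2* that hydrolyzes fatty acid epoxides to diols. The sEH-/- mice carried a constitutive deletion of *Ephx2* in all tissues (*Ephx2*tm1.1Arte crossed with a Cre driven from the ROSA26 locus), wild-type animals were strain-matched littermates, the strain named in the methods is C57BL/6N, and marrow came from animals aged 8 to 10 weeks, in most of the study's experiments females. Monocytes of both genotypes spent 7 days with M-CSF and GM-CSF, both at 15 ng/mL. The series' design text then gives 24 h with 10 ng/mL LPS plus 1 ng/mL IFN-γ, and a further 48 h with TGF-β1, which the methods put at 10 ng/mL. The methods of the study state a shorter LPS and IFN-γ step, allow a shorter TGF-β1 step and name another library kit than the sample labels, so these details are uncertain. All 6 libraries are therefore from LPS-exposed cells, and no untreated, M1 or ER-stressed cells are analysed here against which the stress response could be scaled.

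Library totals lay between 4400197 and 6096440 counts. *Ephx2* held 4, 2 and 1 counts in the sEH-/- and 26, 49 and 57 counts in the wild-type libraries (log2 fold change -4.05, SE 0.43, adjusted p = 0.0042). Every adjusted p given here is Benjamini-Hochberg adjusted and comes from the quasi-likelihood test of edgeR unless another tool is named. The 8 macrophage markers examined were abundant in every library, with a summed level of 1985 to 2457 CPM (counts divided by the TMM-scaled library size, then brought to a common total) in sEH-/- and 1744 to 2204 CPM in wild-type libraries and all 8 log2 fold changes above 0 (median 0.21). None was called, that is, none had both an adjusted p below 0.05 and a change of more than 1.5-fold, by edgeR or DESeq2 (unadjusted p below 0.05 for 3 and 4). *Cd14* passed the adjusted p alone (log2 fold change 0.50, SE 0.10, adjusted p = 0.029). For *Cd14* and *Fcgr1* (0.45, SE 0.12, adjusted p = 0.065) all sEH-/- libraries lay above all wild-type ones, beside 11.8% of all tested genes. An unadjusted p below 0.05 was reached by 23.4% of all tested genes with edgeR and by 16.8% with DESeq2, the shares against which such counts are to be read. Of the neutrophil markers *S100a8* held 117 to 147 counts in the sEH-/- and 78 to 112 in the wild-type libraries. It was higher in every sEH-/- library without being called (adjusted p = 0.057 at a log2 fold change of 0.54, SE 0.14), and the other 4 counted held 0 to 10. The part of neutrophil RNA in the values of the 41 genes was not tested. Of the plasma cell and lymphocyte markers *Jchain* and *Klrb1c* held 0 to 4 counts, whereas *Sdc1* (syndecan-1), which is not restricted to plasma cells, held 1167 to 1441 (log2 fold change -0.02, adjusted p = 0.93). The stromal gene *Col1a1* held 4 to 121 counts. Duplicate reads had been removed by the authors, the highest mean of any gene was 0.972 counts per base of exon, and *Lyz2*, a macrophage lysozyme, held 1153 to 1173 counts whatever the library total, so that differences in the most abundant genes may be compressed. Counts that stay equal while totals differ also give a higher CPM in smaller libraries. The summed macrophage level was highest in the smallest library of each genotype (2457 CPM in sEH-/- replicate 3, 2204 CPM in wild-type replicate 1). Fewer cells of a type and less RNA per cell cannot be told apart in bulk RNA.

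The 2 sides carry different known promoter elements, and their sequences are shown first because these elements are known sites of ATF6 and ATF4. RefSeq promoter windows (250 bases before to 50 bases after a transcription start, GRCm38.p6) were found for 36 of the 41 genes. The ER stress response element (CCAAT, 9 bases of any kind, CCACG, on either strand), which ATF6 binds together with NF-Y, was present in 8 of 18 chaperone-side windows (44.4%) and in 0 of 18 ATF4-side windows, against 0.137% of the windows of all 27025 genes and 0.139% of those of the 10103 tested genes with a window. It stood in *Calr*, *Canx*, *Creld2*, *Dnajc3*, *Hsp90b1*, *Hspa5*, *Pdia6* and *Syvn1*, with 2 copies in *Hsp90b1*. The 4 of these genes with the largest absolute log2 fold changes are printed with the element in capitals and 5 flanking bases on each side. Each is written 5′ to 3′ on the strand of its gene, all 4 being on the plus strand, and *Creld2* holds the element in the reverse orientation.
Creld2 (chr15:88819515-88819543): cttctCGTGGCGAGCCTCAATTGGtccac
Hspa5 (chr2:34772020-34772048): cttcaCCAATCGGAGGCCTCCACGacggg
Pdia6 (chr12:17266486-17266514): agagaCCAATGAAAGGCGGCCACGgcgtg
Dnajc3 (chr14:118937822-118937850): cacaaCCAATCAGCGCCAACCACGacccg
The *Hspa5* stretch ends 42 bases before the RefSeq start and lies inside the span that the annotation of the count table gives the gene. The other 3 lie before that span.

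The composite C/EBP-ATF element (TGATG, any base, AA, on either strand), to which ATF4 binds with a C/EBP partner, was found in 5 of 18 ATF4-side windows (27.8%), in 1 of 18 chaperone-side windows (5.56%) in 4.51% of the windows of all genes and in 2.87% of those of tested genes. The ATF4-side genes were *Asns*, *Chac1*, *Nupr1*, *Pck2* and *Trib3*, and the chaperone-side gene was *Herpud1*. In *Trib3* the element lies after the start and is not shown. The 4 stretches with the element before the start and the largest absolute log2 fold changes are shown in the same way, on the minus strand for *Asns* and the plus strand for the others.
Chac1 (chr2:119351044-119351061): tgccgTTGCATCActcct
Asns (chr6:7693220-7693237): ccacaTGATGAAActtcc
Herpud1 (chr8:94386312-94386329): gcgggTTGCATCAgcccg
Pck2 (chr14:55540158-55540175): caaagTTACATCAgtatc
*Asns* holds it in the forward orientation and the other 3 in the reverse orientation. The printed *Asns* stretch ends 11 bases before the RefSeq start, flanking bases included, and lies inside the gene's span in the table's annotation. The shorter core ACGTG is part of the XBP1 recognition sequence. It was present in 8 ATF4-side (44.4%) and 6 chaperone-side (33.3%) windows, against 21.8% of all genes and 29.3% of tested genes. None of its 20 matches overlapped either longer element, a palindromic CACGTG being counted once on each strand. These are letter matches in known regulatory elements and say nothing of binding in these cells.

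The sEH-/- macrophages held less of 2 ATF4-side transcripts, those of the secreted factor *Gdf15* and of asparagine synthetase (*Asns*), whereas *Atf4*, *Atf5* and *Ddit3* were not called, and no chaperone-side transcript was called. Calls lower in sEH-/- cells made up 2 of 20 ATF4-side and 0 of 21 chaperone-side genes, beside 1.10% of all tested genes, and calls higher 0 on both sides, beside 1.51%. On the chaperone side DESeq2 called 0 genes as well, and an unadjusted p below 0.05 was reached by 4 genes with edgeR (19% of the 21, beside 23.4% of all tested genes) and 3 with DESeq2 (14.3%, beside 16.8%). On the ATF4 side DESeq2 called 2 genes. There an unadjusted p below 0.05 was reached by 7 genes with edgeR (35%, 6 below and 1 above 0) and 4 with DESeq2 (20%). The median log2 fold change was -0.17 on the ATF4 side and -0.14 on the chaperone side, against a median of -0.00092 over all tested genes, and 13 of 20 and 17 of 21 fold changes were below 0, against 50.2% of all tested genes. The plot of log2 fold changes by role shows a wide spread on the ATF4 side and a narrow one on the chaperone side.

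**Figure D1:**
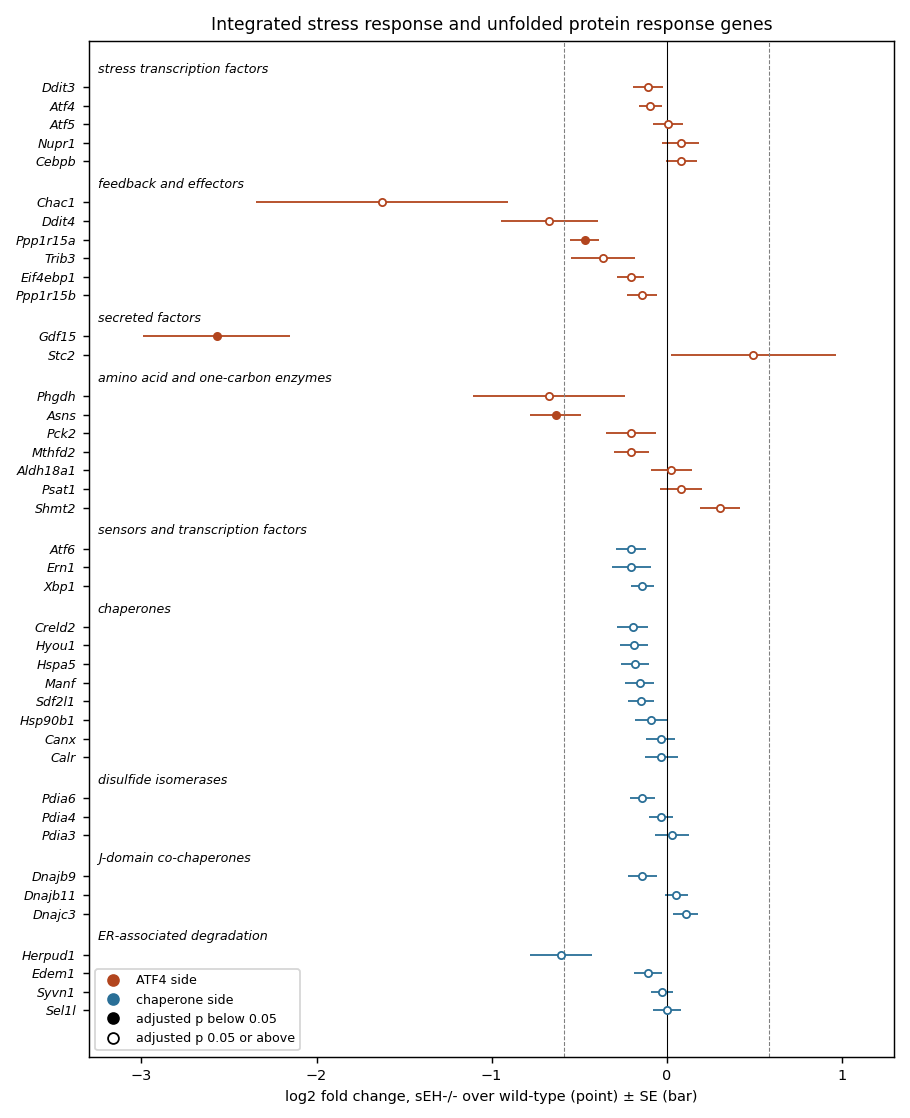
Log2 fold change (sEH-/- over wild-type, point) with its standard error (bar) for the 41 genes, grouped by role, red for the ATF4 side and blue for the chaperone side, with filled points at an adjusted p below 0.05 and dashed lines at 1.5-fold. Filled points are *Gdf15* (-2.57), *Asns* (-0.64) and *Ppp1r15a* (-0.47), and 20 of the 21 chaperone-side points lie between -0.20 and 0.11.

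Among the secreted factors, *Gdf15* (ENSMUSG00000038508, minus strand of mm10 chromosome 8, 70629393 to 70632456) encodes a stress-induced cytokine of the TGF-β superfamily that acts on appetite through a hindbrain receptor. It was measured at 11.8, 4.04 and 7.42 CPM in the sEH-/- libraries and at 21.1, 60.8 and 57.9 CPM in the wild-type libraries. The 2 groups did not overlap, but wild-type replicate 1 lay much closer to the sEH-/- libraries than to the other wild-type ones. The means were 7.75 ± 3.90 and 46.6 ± 22.1 CPM (SD, n = 3 each), a fitted level 5.94-fold lower in sEH-/- cells (log2 fold change -2.57, SE 0.42, adjusted p = 0.018). Only 6 of the 13785 tested genes had a lower log2 fold change. The call was lost without wild-type replicate 2 (adjusted p = 0.074) or wild-type replicate 3 (adjusted p = 0.12), while leaving out any single library gave log2 fold changes from -3.07 to -2.25. *Stc2*, a secreted glycoprotein known to be induced by ATF4, held 13, 12 and 3 counts in sEH-/- and 6, 6 and 9 counts in wild-type libraries, too few to resolve a difference (log2 fold change 0.49, SE 0.47, adjusted p = 0.58).

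The 5 stress transcription factors were close to each other in the 2 genotypes, with log2 fold changes from -0.10 to 0.08 and no adjusted p below 0.43. *Atf4*, the factor for which this side is named, was measured at 136.5, 145.3 and 143.8 CPM in sEH-/- and at 151.3, 147.2 and 155.2 CPM in wild-type libraries. The groups did not overlap, although the gap between the nearest libraries was 1.88 CPM. The log2 fold change, -0.09 (SE 0.06, adjusted p = 0.43), had a 95% interval from -0.24 to 0.05. ATF4 is controlled chiefly by translation, which RNA counts do not measure.

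*Ddit3* encodes CHOP, which drives the late, pro-apoptotic arm of the response. Its levels were 50.6, 52.9 and 47.8 CPM in sEH-/- and 51.2, 56.0 and 55.4 CPM in wild-type libraries, so the groups overlapped (log2 fold change -0.10, SE 0.09, adjusted p = 0.51). *Atf5*, a translationally controlled relative of ATF4, stood at 88.5 ± 6.84 and 88.1 ± 7.02 CPM (SD, n = 3 each), and the sign of its log2 fold change, 0.01 (SE 0.09, adjusted p = 0.97), turned under 5 of the 15 alternative settings. *Cebpb*, a C/EBP partner of ATF4 that is also induced by LPS, stood at 149.2 ± 12.8 and 140.7 ± 11.7 CPM (SD, n = 3 each; log2 fold change 0.08, adjusted p = 0.61). *Nupr1*, a chromatin-associated stress protein, had a log2 fold change of 0.08 (adjusted p = 0.70).

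All 6 feedback genes and effectors had log2 fold changes below 0, with a median of -0.42, and 1 of them passed the adjusted p without the fold threshold. This was *Ppp1r15a* (GADD34, minus strand of mm10 chromosome 7, 45522916 to 45526268), the inducible phosphatase subunit that removes the phosphate from eIF2α and so ends the response. It was measured at 62.3, 62.4 and 64.9 CPM in sEH-/- and at 79.8, 94.6 and 86.9 CPM in wild-type libraries. The sEH-/- libraries were nearly equal and all lay below the lowest wild-type library. *Ppp1r15a* fell by 0.47 on the log2 scale (SE 0.08, adjusted p = 0.022), and the 95% interval from -0.65 to -0.28 spans the 1.5-fold threshold. Without sEH-/- replicate 2 the adjusted p was 0.075, and without wild-type replicate 2 or 3 it was 0.12. Genes with an adjusted p below 0.05 and a lower level in sEH-/- cells, whatever the fold, made up 1.62% of all tested genes and were 3 of 20 on the ATF4 side (*Gdf15*, *Asns* and *Ppp1r15a*), and those with a higher level made up 2.39% and were 0 of 20. *Ppp1r15b*, the constitutive counterpart of GADD34, stood at 264.4 ± 24.4 and 291.4 ± 14.3 CPM (SD, n = 3 each; log2 fold change -0.14, adjusted p = 0.36).

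The remaining 4 effectors did not pass the test at either threshold. *Chac1*, which degrades glutathione and is among the most ATF4-dependent genes known, held 5, 6 and 0 counts in sEH-/- and 3, 22 and 13 counts in wild-type libraries. Wild-type replicate 1 lay within the sEH-/- range and the other wild-type libraries above it (log2 fold change -1.63, SE 0.72, adjusted p = 0.20). *Ddit4* (REDD1), an inhibitor of mTORC1, was measured at 38.3, 14.7 and 23.2 CPM in sEH-/- and at 31.0, 46.9 and 44.3 CPM in wild-type libraries. sEH-/- replicate 1 stood above wild-type replicate 1 (log2 fold change -0.67, SE 0.28, adjusted p = 0.18), and without sEH-/- replicate 1 *Ddit4* was called (log2 fold change -1.13, adjusted p = 0.027). *Trib3*, a pseudokinase that restrains ATF4 and CHOP, stood at 32.8, 35.3 and 23.2 CPM in sEH-/- and at 30.3, 47.4 and 39.8 CPM in wild-type libraries, with overlapping groups (log2 fold change -0.36, SE 0.18, adjusted p = 0.27). *Eif4ebp1*, which encodes the translation repressor 4E-BP1, was lower in all 3 sEH-/- libraries (66.4, 72.6 and 74.2 CPM) than in all 3 wild-type libraries (83.1, 79.0 and 83.4 CPM). The difference was small and did not pass the adjusted test (log2 fold change -0.20, SE 0.08, adjusted p = 0.14).

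**Figure D2:**
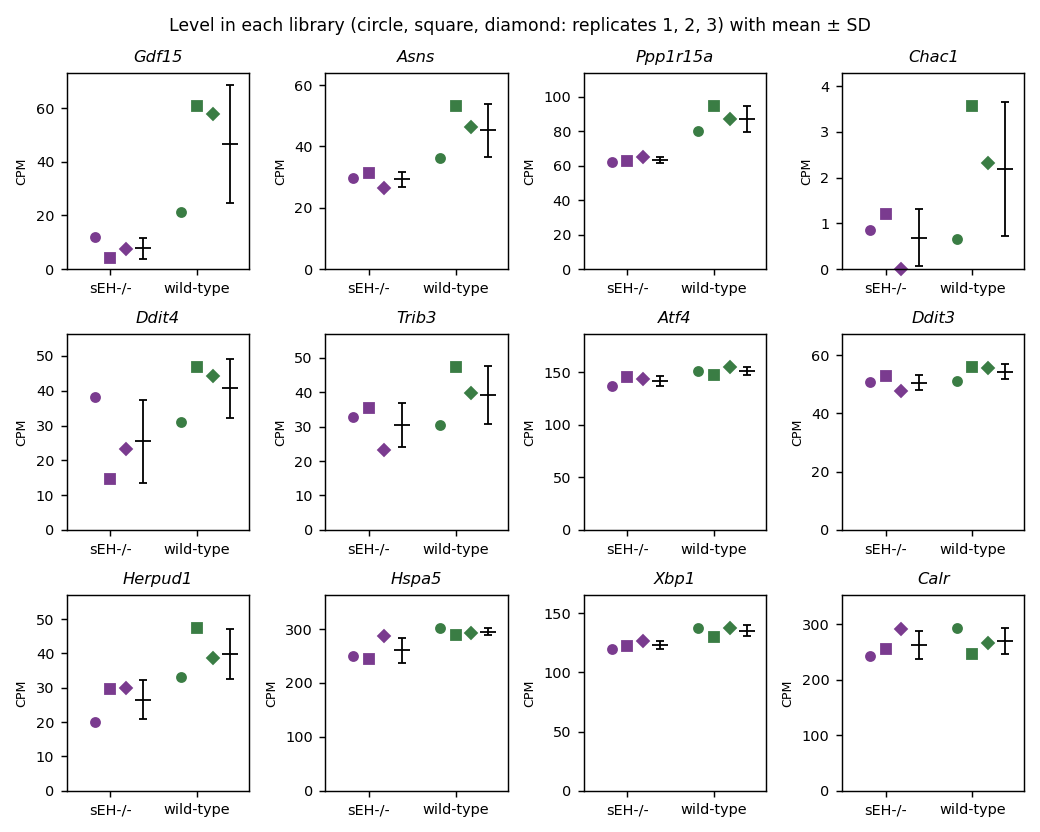
Level (CPM, linear axes from 0) of 12 genes in each of the 6 libraries, purple for sEH-/- and green for wild-type, with circle, square and diamond for replicates 1, 2 and 3 and the mean ± SD (n = 3) beside them. The groups are apart for *Gdf15*, *Asns*, *Ppp1r15a*, *Atf4*, *Herpud1*, *Hspa5* and *Xbp1* and overlap for the other 5 genes, and wild-type replicate 1 is the lowest wild-type library for every gene shown except *Atf4*, *Hspa5*, *Xbp1* and *Calr*.

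The 7 enzymes of amino acid and one-carbon metabolism did not move together, since 4 had log2 fold changes below 0 and 3 above 0. *Asns* (ENSMUSG00000029752, minus strand of mm10 chromosome 6, 7675169 to 7693254) makes asparagine from aspartate and is a standard readout of amino acid deprivation. It was measured at 29.8, 31.5 and 26.4 CPM in sEH-/- and at 36.1, 53.2 and 46.4 CPM in wild-type libraries. No library overlapped with the other genotype, and wild-type replicate 1 was again the nearest to it. *Asns* fell from 45.2 ± 8.64 to 29.2 ± 2.57 CPM (SD, n = 3 each; log2 fold change -0.64, SE 0.15, adjusted p = 0.043). The call, close to both thresholds, was lost without sEH-/- replicate 2 or 3 and without wild-type replicate 2 or 3 (adjusted p from 0.070 to 0.21), with the replicate number as a block (adjusted p = 0.056) and with the library total as a covariate (adjusted p = 0.057).

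In the serine and one-carbon branch the values pointed in both directions. *Shmt2*, the mitochondrial serine hydroxymethyltransferase, was measured at 39.2, 43.8 and 34.8 CPM in sEH-/- and at 32.3, 30.02 and 33.3 CPM in wild-type libraries. It was the only gene of the 41 with all sEH-/- libraries above all wild-type ones, but it did not pass the test (log2 fold change 0.30, SE 0.11, adjusted p = 0.14). *Mthfd2*, the next mitochondrial step, had a log2 fold change of -0.20 (adjusted p = 0.26), *Psat1*, of serine synthesis, 0.08 (adjusted p = 0.73) and *Aldh18a1*, of proline synthesis, 0.03 (adjusted p = 0.92). *Phgdh*, the first enzyme of serine synthesis, was near the filter with 0.80 ± 0.18 and 1.26 ± 0.33 CPM (SD, n = 3 each; log2 fold change -0.67, SE 0.44, adjusted p = 0.42). *Pck2*, mitochondrial phosphoenolpyruvate carboxykinase, had a log2 fold change of -0.20 (adjusted p = 0.43).

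Groups that did not overlap between the genotypes were counted next. All sEH-/- libraries lay below all wild-type libraries for 5 of 20 ATF4-side genes (*Gdf15*, *Asns*, *Ppp1r15a*, *Eif4ebp1* and *Atf4*) and for 5 of 21 chaperone-side genes (*Herpud1*, *Hyou1*, *Hspa5*, *Sdf2l1* and *Xbp1*), beside 14.5% of all tested genes. They lay above for 1 and 0 genes, beside 11.8% of all tested genes. With 3 libraries a group, an exact permutation test of a single gene cannot give a two-sided p below 0.1.

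On the chaperone side the sensors *Atf6* and *Ern1* and the transcription factor gene *Xbp1* come first. *Atf6*, *Ern1* (IRE1α) and *Xbp1* had log2 fold changes of -0.20 (SE 0.08), -0.20 (SE 0.11) and -0.14 (SE 0.07), with adjusted p of 0.17, 0.31 and 0.23. *Xbp1*, whose mRNA is spliced by IRE1α, was measured at 119.6, 122.5 and 126.4 CPM in sEH-/- and at 137.8, 129.97 and 137.8 CPM in wild-type libraries. The groups were apart by 3.60 CPM, and gene counts do not separate its spliced from its unspliced form. *Atf6* lay at 191.1 to 207.1 CPM in sEH-/- and at 206.3 to 243.7 CPM in wild-type libraries.

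The 8 chaperones and chaperone-like proteins all had log2 fold changes below 0, within a narrow range from -0.19 to -0.03 (median -0.15), and none was called (unadjusted p below 0.05 for 2 with edgeR and 1 with DESeq2). *Hspa5* (BiP), the ER Hsp70 that also holds the sensors inactive, was measured at 250.3, 244.0 and 286.6 CPM in sEH-/- and at 302.7, 289.5 and 293.3 CPM in wild-type libraries. Replicates 1 and 2 of the sEH-/- cells stood well below the wild-type range, and replicate 3 was 2.87 CPM below it (log2 fold change -0.18, SE 0.08, adjusted p = 0.21). *Hyou1*, its large nucleotide-exchange partner, was nearly constant in wild-type cells (300.3, 302.9 and 299.0 CPM) and lower in each sEH-/- library (274.9, 238.7 and 279.4 CPM; log2 fold change -0.19, adjusted p = 0.19). *Sdf2l1*, a BiP cofactor, was below the wild-type range in all 3 sEH-/- libraries, at 67.8 ± 3.0 against 75.0 ± 1.78 CPM (SD, n = 3 each; log2 fold change -0.15, adjusted p = 0.27). *Creld2* and *Manf*, small ER proteins secreted under stress, had log2 fold changes of -0.19 and -0.16 (adjusted p = 0.22 and 0.29).

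Among the chaperones, *Hsp90b1*, *Canx* and *Calr* had the fold changes nearest to 0. *Hsp90b1* (GRP94) had a log2 fold change of -0.09 (adjusted p = 0.60), and the lectin chaperones *Canx* and *Calr* had -0.04 and -0.03 (adjusted p = 0.84 and 0.88). For *Calr* the libraries held 242.1, 255.9 and 291.2 CPM in sEH-/- and 293.7, 247.0 and 266.0 CPM in wild-type cells, so that the spread within each genotype exceeded the difference of the means. The protein disulfide isomerases *Pdia6*, *Pdia4* and *Pdia3* had log2 fold changes of -0.14, -0.03 and 0.03 (adjusted p = 0.27, 0.83 and 0.88). The J-domain co-chaperones, which bring substrates to BiP, had -0.14 for *Dnajb9*, 0.06 for *Dnajb11* and 0.11 for *Dnajc3* (adjusted p from 0.34 to 0.67).

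In ER-associated degradation, *Herpud1* (ENSMUSG00000031770, plus strand of mm10 chromosome 8, 94386438 to 94395377), which recruits the ubiquitin ligase complex, had the largest fold change of the chaperone side. It was measured at 20.0, 29.7 and 29.9 CPM in sEH-/- and at 33.2, 47.5 and 38.7 CPM in wild-type libraries. The groups did not overlap, sEH-/- replicate 1 being the lowest library and wild-type replicate 1 the nearest wild-type one. *Herpud1* was past 1.5-fold and above the adjusted p threshold (log2 fold change -0.61, SE 0.18, adjusted p = 0.076), and it was called without wild-type replicate 1 (log2 fold change -0.71, adjusted p = 0.048). *Edem1*, a lectin that extracts misfolded glycoproteins, had a log2 fold change of -0.11 (adjusted p = 0.48). The ligase subunits *Syvn1* and *Sel1l* had -0.03 and 0.00044 (adjusted p = 0.83 and 0.998).

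The chaperone-side fold changes were also the more narrowly bounded. For 20 of its 21 genes the 95% interval of the log2 fold change lay inside 1.5-fold in both directions, and for 13 inside 1.25-fold. On the ATF4 side this held for 12 and 6 of 20 genes. The intervals refer to the deposited counts, in which 20 of 21 chaperone-side genes carried more than 0.1 counts per exonic base (range of all 21, 0.075 to 0.479), the abundance at which compression matters most. Among the 4296 tested genes of that abundance the median log2 fold change was 0.03 and 41.9% were below 0, compared with 16 of the 20 chaperone-side genes. With a correction for a ceiling of 1 count at each base of an exon, the medians became -0.15 for the chaperone side and -0.19 for the ATF4 side, and the number of calls did not change.

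**Figure D3:**
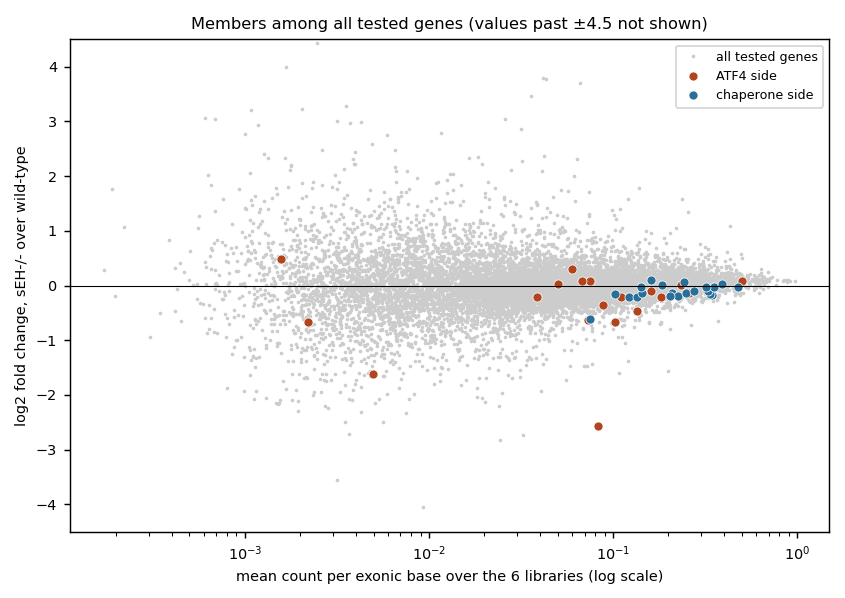
Log2 fold change (sEH-/- over wild-type) against the mean count per exonic base over the 6 libraries (log axis) for all 13785 tested genes (grey, values past ±4.5 not shown), ATF4-side genes (red) and chaperone-side genes (blue). Chaperone-side genes sit to the right, 20 of 21 above 0.1 counts per base and mostly just below 0, while *Gdf15* stands apart at -2.57.

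Per length, the members spanned a wide range of levels in wild-type cells. *Cebpb* (93.6 ± 7.80 CPM per kilobase of exon), *Calr* (93.4 ± 8.16), *Pdia3* (74.6 ± 6.32) and *Hspa5* (69.8 ± 1.62; SD, n = 3 each) were the most abundant, the first pair differing by less than the spread between libraries. *Atf4* stood at 64.1 ± 1.71 CPM per kilobase. *Gdf15* stood at 25.2 and *Asns* at 16.5 CPM per kilobase, and *Chac1* (1.34), *Phgdh* (0.51) and *Stc2* (0.25) were the least abundant. In sEH-/- cells *Gdf15* stood at 4.19 CPM per kilobase.

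**Figure D4:**
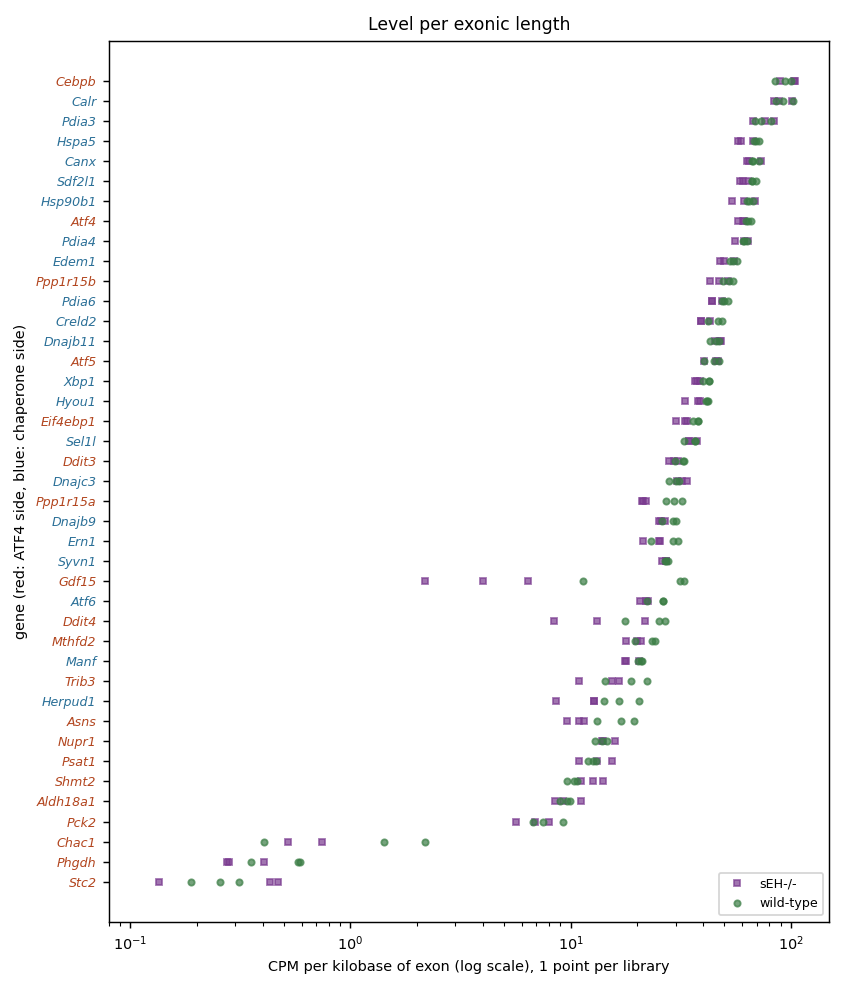
Level per exonic length (CPM per kilobase of exon, log axis) of the 41 genes in each library, squares for sEH-/- and circles for wild-type, ordered by the wild-type mean. Chaperone-side genes (blue names) lie between 17.1 (*Herpud1*) and 93.4 (*Calr*) in wild-type cells, the squares and circles of *Gdf15* are widely separated, and the count of 0 for *Chac1* in sEH-/- replicate 3 cannot be drawn on this axis.

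The 2 sides did not put the libraries in the same order. Taking for each library the median of log2(CPM + 0.5) minus the wild-type mean over the genes of a side, the ATF4 side stood at -0.15, -0.11 and -0.17 in the sEH-/- and at -0.11, 0.05 and 0.06 in the wild-type libraries. Wild-type replicate 1 thus lay with the sEH-/- libraries, and it was the lowest wild-type library for 12 of the 20 genes. The chaperone side stood at -0.15, -0.14 and -0.02 in the sEH-/- and at 0.04, -0.01 and -0.01 in the wild-type libraries, so that here sEH-/- replicate 3 lay with the wild-type libraries, and it was the highest sEH-/- library for 18 of the 21 genes. These 2 libraries had the smallest totals of their genotypes (4400197 for sEH-/- replicate 3 and 4632688 for wild-type replicate 1), and with the library total as a covariate the median log2 fold changes were -0.17 on the ATF4 side and -0.14 on the chaperone side. After the ceiling correction the chaperone side stood at -0.17, -0.17 and -0.02 in sEH-/- and at 0.01, 0.03 and -0.01 in wild-type libraries. For the counts of genes by highest or lowest library, here and below, the matching shares of all tested genes were not computed. Whether other genes of like abundance show the same order of libraries was not tested.

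**Figure D5:**
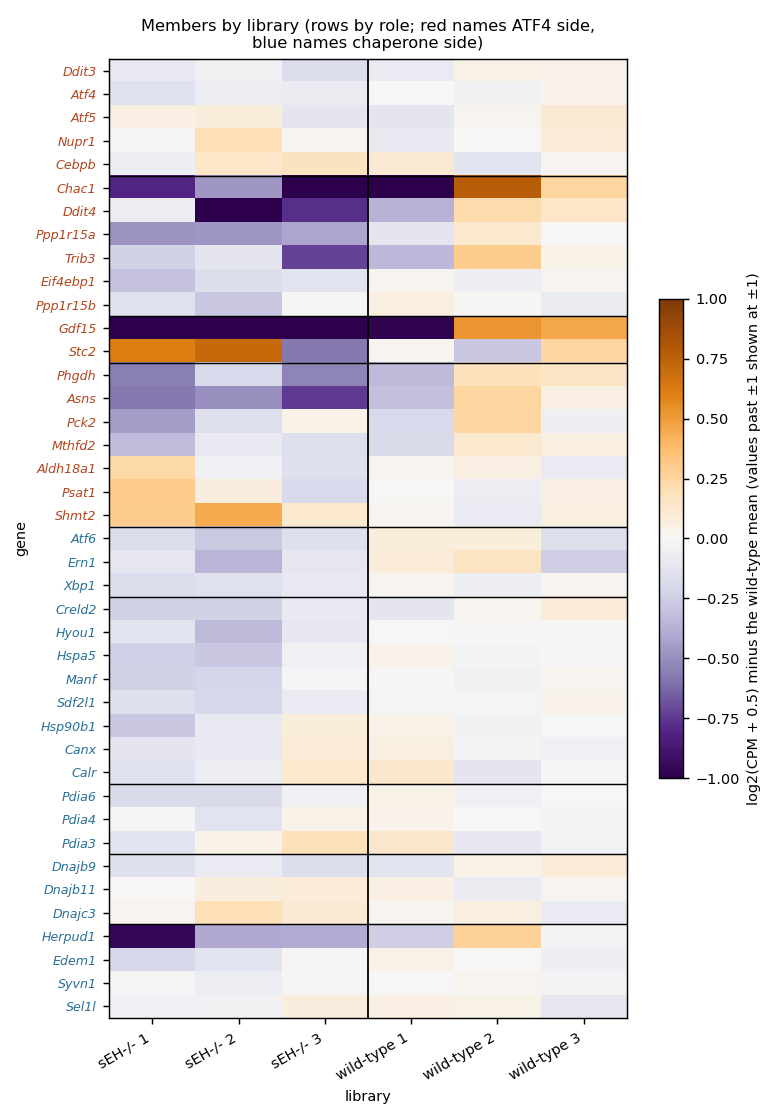
Log2(CPM + 0.5) minus the wild-type mean (color, capped at ±1) for the 41 genes (rows, by role) in the 6 libraries (columns), red names for the ATF4 side and blue names for the chaperone side. Wild-type replicate 1 is low for *Gdf15*, *Chac1*, *Ddit4*, *Trib3* and *Asns*, as in most of the sEH-/- libraries, and sEH-/- replicate 3 is close to the wild-type libraries for most chaperones.

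Markers of other cells differed between the same libraries. The summed level of the 4 stromal genes was 18.6, 13.9 and 9.04 CPM in the sEH-/- and 4.84, 33.3 and 13.6 CPM in the wild-type libraries, lowest in wild-type replicate 1 and highest in wild-type replicate 2, the library in which 10 of the 20 ATF4-side genes were at their highest. None of the 4 was called by either tool or had an unadjusted p below 0.05, the groups overlapped, and the part of stromal cells in the ATF4-side values was not tested. The summed level of the 5 dendritic cell markers counted was 27.0, 29.1 and 57.7 CPM in the sEH-/- and 42.2, 58.9 and 46.8 CPM in the wild-type libraries. As on the chaperone side, sEH-/- replicate 3 lay with the wild-type libraries and the other sEH-/- libraries lay below them. All 3 tested dendritic markers had log2 fold changes below 0 and none was called by either tool, *Clec9a* at -0.31 (adjusted p = 0.54), *Ccr7* at -0.09 (adjusted p = 0.92) and *Zbtb46*, a dendritic cell transcription factor, at -0.98 (SE 0.34, unadjusted p = 0.015, adjusted p = 0.11). *Xcr1* held 0 to 3 counts and *Cd209a* 0. The part of dendritic cells in the chaperone-side values was not tested.

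Other genes of the same pathways were then read from the same fit, and their counts at an unadjusted p below 0.05 stand beside 23.4% of all tested genes with edgeR and 16.8% with DESeq2. None of the 13 genes for eIF2 kinases, eIF2 and eIF2B subunits and NCK1 was called by edgeR or DESeq2 (median log2 fold change -0.03), with an unadjusted p below 0.05 for 4 and 1 of them (30.8% and 7.69%). Their log2 fold changes ranged from -0.32 (*Eif2b3*) to 0.36 (*Eif2ak2*, which encodes the kinase PKR, SE 0.10, adjusted p = 0.065). All sEH-/- libraries lay above all wild-type ones for 1 gene, *Eif2ak2* (7.69%, beside 11.8% of all tested genes). They lay below for 3 (23.1%, beside 14.5%). *Eif2ak3*, which encodes the ER stress sensor PERK, had -0.19 (adjusted p = 0.25). Of 17 tested further ATF4 targets 1 was called, *Vldlr*, a lipoprotein receptor known to be induced by ATF4, at 28.7 ± 11.9 and 69.7 ± 11.6 CPM in sEH-/- and wild-type cells (SD, n = 3 each; log2 fold change -1.29, SE 0.24, adjusted p = 0.025), a call lost without wild-type replicate 2 or 3 (adjusted p = 0.12 for both) and with the library total as a covariate (adjusted p = 0.056). In this list an unadjusted p below 0.05 was reached by 6 of 17 genes with edgeR and by 6 with DESeq2 (35.3% each). Its log2 fold changes ranged from -1.41 to 0.37, 9 below and 8 above 0, with a median of -0.01. *Atf3*, a stress transcription factor downstream of ATF4, had a log2 fold change of -0.01 (adjusted p = 0.97). None of the 18 cytosolic tRNA synthetases, many of them known ATF4 targets, was called by either tool (median -0.03), with an unadjusted p below 0.05 for 2 with both (11.1%). Of 35 further ER and unfolded protein response genes edgeR called 0 and DESeq2 1, with an unadjusted p below 0.05 for 8 and 4 (22.9% and 11.4%), 25 log2 fold changes below 0 and a median of -0.05. The gene called by DESeq2 was *Pdia5*, a disulfide isomerase named here after its values were seen (edgeR log2 fold change -0.78, SE 0.19, adjusted p = 0.053). Of 15 cytosolic heat shock genes both called 0, with an unadjusted p below 0.05 for 2 and 3 (13.3% and 20%) and a median of -0.01.

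*Gdf15* is also a known p53 target, so it was set beside 12 further p53 targets. All 12 had log2 fold changes below 0, with a median of -0.47, and 5 were called lower in sEH-/- cells, beside 1.10% of all tested genes. These 12 genes were listed with earlier results of these data known, so their share called is a description and not an independent test. The number called was 0 without wild-type replicate 2, 0 without wild-type replicate 3 and 1 without sEH-/- replicate 2. Their library medians were -0.42, -0.45 and -0.41 in the sEH-/- and -0.11, 0.07 and 0.03 in the wild-type libraries, again with wild-type replicate 1 lowest among the wild-type. The part of p53 in the *Gdf15* level was not tested.

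The genes with each promoter element were compared with their sides last. The 8 genes with the ER stress response element had log2 fold changes from -0.19 to 0.11 with a median of -0.06, 7 of them below 0 and 0 called. The 6 genes with the composite C/EBP-ATF element ranged from -1.63 (*Chac1*) to 0.08 (*Nupr1*) with a median of -0.48, 5 of them below 0, and 1 of them, *Asns*, was called. *Gdf15* and *Ppp1r15a* held neither longer element in their windows. Both held the ACGTG core, which 29.3% of tested genes with a window also held. On the ATF4 side it was present as well in *Asns*, *Ddit3* and *Ddit4*, below 0, and in *Aldh18a1*, *Nupr1* and *Psat1*, above 0. These medians describe small groups of genes and were not tested.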

How the data were processed

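The deposited values are raw counts per gene. Per their methods and the labels, reads were trimmed with Trimmomatic (0.39), aligned to mm10 with STAR (2.7.7a), and counted in a strand-aware way over exons with featureCounts (1.6.5), once duplicates (Picard 2.21.7) and ribosomal, mitochondrial and multi-mapping reads had been discarded. Versions are those of the submitters' processing notes, and some differ in the methods. Duplicate removal can cap the counts of abundant genes, and reads over more than one gene were left out.

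Tests were run with edgeR 4.0.16 under R 4.3.3 (TMM, glmQLFit and glmQLFTest, Benjamini-Hochberg adjustment over all 13785 genes with a mean count above 5). A positive log2 fold change means a higher level in sEH-/- cells, and its SE was derived from the F statistic. With 3 libraries per genotype, 1 per mouse by the study's text, p-values weigh the genotype difference against the spread between these libraries. The test estimates that spread for each gene with information shared across all tested genes. In data simulated with the same means, totals and per-gene dispersions, 73 of 100 genes changed 2-fold and 91 of 100 changed 4-fold were called, with 10 false calls among 174. The common biological coefficient of variation of the real libraries was 0.0866. Simulated libraries were drawn independently, so these rates do not cover differences that many genes of a real library share. Chi-square per degree of freedom between libraries of 1 genotype was 2.27 to 4.91, so no library was a duplicate.

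The members and the lists of other genes were chosen with earlier results of these data known. Named with values are called members, members with an adjusted p below 0.05, the 3 largest and smallest fold changes of each side, a set of leading members, and called genes of the other lists, at most 4 per list. Other members are named to account for all 41. Promoter elements printed are at most 4 of each kind by absolute fold change. Exonic lengths came from GENCODE M21, and promoters from RefSeq. The p53 genes called are given as a count. Alternatives were DESeq2 1.42.0, RLE factors, no TMM factors, leaving out each library, a replicate block, no filter or a minimum of 10 counts per library, a ceiling correction, the library total as a covariate, and no fold threshold.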

Additional observations from a re-analysis of the deposited data

How the results depend on the processing

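On the ATF4 side 2 genes were called, and the number of calls was 1 with the replicate number as a block and 1 with the library total as a covariate (*Gdf15* in both), 3 without the fold threshold, and 0 to 3 with each library left out (0 without wild-type replicate 2 or 3, where over all genes 25 and 6 calls were left of 360). On the chaperone side 0 genes were called, and 0 to 1 with each library left out (*Herpud1*, without wild-type replicate 1). The number of calls over all genes was 360, against 472 with DESeq2, 234 with the replicate block, 171 with the covariate, and 6 to 625 with each library left out. The median log2 fold change stayed between -0.20 and -0.11 on the ATF4 side and between -0.16 and -0.10 on the chaperone side under every alternative. No pairing of the libraries by replicate number was seen. The correlations of same-numbered deviations from the group means were -0.07, -0.23 and -0.03, and no sEH-/- library correlated best with its own number. Deviations within a genotype sum to 0 for each gene, so these correlations constrain each other and cannot exclude a pairing. The block changed the call of *Asns* alone among the called members. Some fold changes near 0 turned sign. *Atf5* went to -0.014 without TMM factors, to -0.00053 after the ceiling correction, and to between -0.050 and 0.077 with each library left out. With each library left out, *Calr* lay between -0.101 and 0.034, *Canx* between -0.094 and 0.0080, and *Pdia3*, which was -0.032 with the covariate, between -0.038 and 0.112. The cause of these changes was not tested. With totals of 4400197 to 6096440 counts, *Chac1*, *Phgdh* and *Stc2*, each below 25 counts in every library, can show large changes only.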
